A study of Mus musculus with 10 samples.

Results

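The receptor tyrosine kinases described here are 41 genes of this family among the 54532 genes of the deposited table, taken by gene name, with each named receptor kept whatever its values. They were measured by RNA-seq of whole spleen in 5 DUSP6 KO and 5 WT mice, 1 library per mouse. DUSP6 KO mice carried the Dusp6tm1Jmol deletion in every cell of the body, and the sample labels call this genotype a knockdown. WT mice were C57BL/6J. All mice were 8 to 12 weeks old and were given 100 µL of pooled serum from arthritic KRN x NOD F1 mice intraperitoneally on days 0 and 2, which transfers arthritis (KSIA, the serum-induced KRN model), and the spleens were taken on day 9. Both groups had received the serum, so the values compare genotypes among serum-treated mice only. The paper reported milder arthritis in DUSP6 KO mice, so genotype and disease severity cannot be told apart in these values.

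Receptor tyrosine kinases span the cell membrane, bind a growth factor or a membrane-bound or matrix ligand outside the cell, and phosphorylate themselves and their adaptors inside it. One of the cascades they start ends in ERK, the kinase that DUSP6 dephosphorylates, and Dusp6 itself is transcribed in response to ERK, so that the phosphatase is part of the feedback on these receptors. In the spleen the family is divided among cell types: CSF1R, AXL and MERTK belong to macrophages, KIT and FLT3 to progenitor, mast and dendritic cells, the VEGF and TIE receptors to endothelium, and the PDGF receptors to stromal and perivascular cells. In bulk tissue such as this, fewer cells of a type and less RNA per cell cannot be told apart.

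The deleted gene checked the labels. The level of Dusp6 was 0.308 to 0.624 FPKM in the 5 DUSP6 KO spleens and 16.6 to 23.98 FPKM in the 5 WT spleens, a log2 fold change of -5.19 ± 0.16 (SE; limma adjusted p = 1.33e-07). FPKM is the number of fragments per kilobase of gene, scaled to a common library size, so levels can be set side by side between genes. Recovered read totals were 14990474 to 19822673 in DUSP6 KO and 15611652 to 18422147 in WT libraries. In all 10 libraries Xist was at or under 0.0206 FPKM and Ddx3y, on the Y chromosome, at or over 14.4 FPKM, the pattern of males, whereas the labels speak of male and female mice. WT mouse 67 carried exocrine pancreas transcripts, with 2.32% of its reads on 11 pancreatic marker genes and at most 0.0333% in the other libraries, and its values are in all comparisons unless stated.

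Of the 41 receptors, 39 passed the expression filter of a mean of 0.1 FPKM over the 10 libraries and were tested, and Epha7 and Musk did not. No receptor reached an adjusted p of 0.05 in the limma comparison of all 21296 genes tested, where 15 genes did (0.0704%). At an unadjusted p under 0.05, 6 receptors were higher in DUSP6 KO (15.4% of the 39), against 2.62% of all genes in that direction. These were Csf1r, Pdgfrb, Tek, Epha4, Ryk and Ptk7. None was lower, against 3.03% of all genes. By the two-sided exact permutation test of each receptor, 9 of the 39 had p under 0.05 (5.5% of all genes did), namely these 6 with Fgfr4, Axl and Ephb4. The groups did not overlap for 1 receptor, Csf1r, and for 1.11% of all genes, and no receptor lay wholly below WT, as 0.563% of all genes did. The log2 fold change was above 0 for 32 of the 39 receptors (82.1%) and for 49% of all genes, and its median was 0.13 over the receptors and -0.0046 over all genes. Receptors measured in the same libraries are not independent of each other, and no test was made of the list as a whole. On the scale of FPKM + 0.1, the 95% interval of the log2 fold change lay within 1 either way for 37 of the 39 receptors. The others were Epha4 and Ptk7, and an interval within 0.5 was reached by only 16. A 2-fold difference on this scale was thus outside the interval for most of the family. The added constant narrows fold changes at low levels, so for the 12 receptors at 0.1 to 1 FPKM this does not bound the ratio of FPKM itself.

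**Figure D1:**
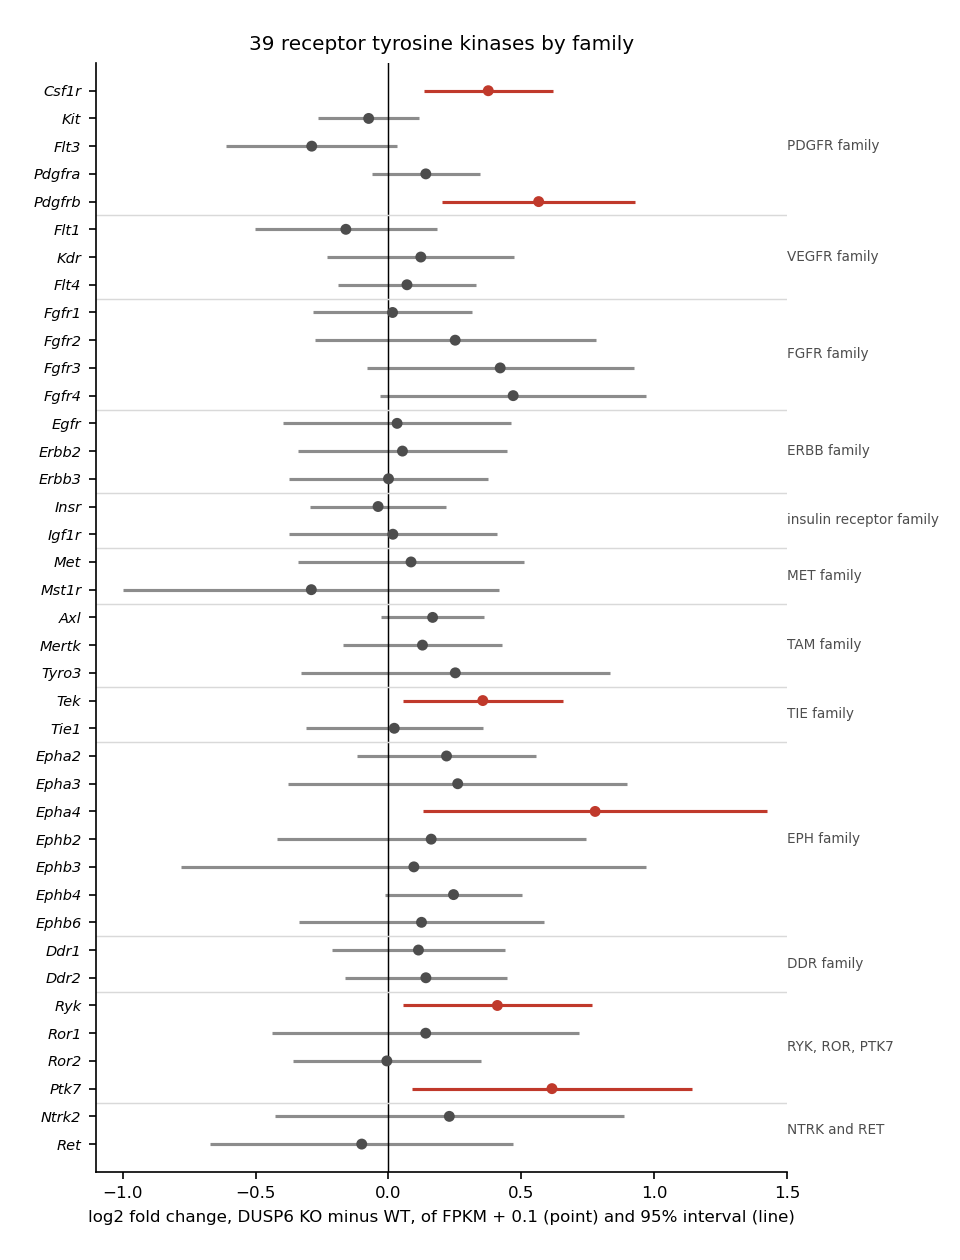
Log2 fold change of FPKM + 0.1, DUSP6 KO minus WT (x axis), for the 39 receptors tested, grouped by family (y axis), with points for the limma estimate, lines for the 95% interval and red for an unadjusted p under 0.05. The 6 red intervals, from Csf1r to Ptk7, lie to the right of 0, and none lies wholly to the left.

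The class III receptors held the member with the most RNA and the only one whose groups did not overlap. Csf1r (chr18:61105572-61132149, GRCm38), the receptor for CSF1 and IL34 on which macrophages depend, was at 139, 179.9, 164, 136 and 149 FPKM in DUSP6 KO mice 26, 21, 73, 01 and 03, the order used for all values below. In WT mice 65, 67, 73, 77 and 83, also the order used below, it was at 123, 133, 122, 96.8 and 117 FPKM. Every DUSP6 KO spleen was above every WT spleen, with means of 153.5 ± 18.6 and 118 ± 13.3 FPKM (SD, n = 5 each). The log2 fold change was 0.38 ± 0.11 (SE; limma unadjusted p = 0.00587, adjusted p = 0.555), and the two-sided exact permutation test gave p = 0.00794, the smallest that 5 against 5 allows. Groups without overlap in this direction were seen for 0.549% of all genes.

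Pdgfrb (chr18:61045150-61085061), the PDGF-BB receptor of pericytes and reticular stroma, lies 20.5 kb from Csf1r on the same strand. It was at 8.27, 17.1, 10.8, 12.4 and 13.3 FPKM in the DUSP6 KO mice and 9.01, 7.25, 8.19, 8.05 and 8.12 FPKM in the WT mice. Mice 21, 03, 01 and 73 of DUSP6 KO were above all WT mice and mouse 26 was among them, while the 5 WT values lay close together (12.4 ± 3.26 against 8.12 ± 0.625 FPKM). Its log2 fold change was 0.57 ± 0.16 (limma unadjusted p = 0.00586, adjusted p = 0.555; exact permutation p = 0.0159). Without DUSP6 KO mouse 21, which had the highest value, it was 0.44 ± 0.14 (unadjusted p = 0.00989).

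The other class III receptors did not differ at the unadjusted threshold. Pdgfra, the PDGF-AA and PDGF-CC receptor of mesenchymal cells, was at 4.69 ± 0.386 FPKM in the DUSP6 KO and 4.25 ± 0.334 FPKM in the WT group (0.14 on the log2 scale, exact permutation p = 0.127). Kit, the stem cell factor receptor of progenitors and mast cells, was at 5.63 ± 0.477 and 5.92 ± 0.387 FPKM, and the 95% interval of its log2 fold change, -0.26 to 0.12, was the narrowest of the 39. Flt3, the receptor for FLT3 ligand on progenitors and dendritic cells, had the lowest limma p of the 7 receptors with a negative log2 fold change: it was at 7.03, 7.15, 6.13, 4.80 and 7.17 FPKM in the DUSP6 KO mice and 7.23, 8.87, 9.51, 6.25 and 7.67 FPKM in the WT mice (-0.29 ± 0.15, exact permutation p = 0.0873). All 5 DUSP6 KO values lay below the WT median, and those of mice 73 and 01 lay below every WT value.

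Among the endothelial receptors, Tek was higher at an unadjusted p under 0.05 and its partner Tie1 did not pass that threshold. Tek (chr4:94739289-94874976), the angiopoietin receptor TIE2, was at 3.50, 5.38, 3.81, 3.92 and 3.72 FPKM in the DUSP6 KO mice and 2.68, 3.29, 3.73, 3.03 and 2.97 FPKM in the WT mice. Mouse 21 stood above the rest, and the lowest DUSP6 KO values overlapped the highest WT value (0.35 ± 0.14, unadjusted p = 0.0248, adjusted p = 0.789; exact permutation p = 0.0238). Tie1, the orphan receptor that pairs with TIE2, was at 7.90, 12.9, 8.02, 10.2 and 11.4 FPKM in the DUSP6 KO mice and 9.08, 11.99, 10.1, 8.53 and 9.40 FPKM in the WT mice. Its groups overlapped, with DUSP6 KO mice 26 and 73 below and mouse 21 above all WT mice, and the interval of its log2 fold change was -0.31 to 0.36. That Tek and Tie1 differed from each other in response was not tested.

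None of the VEGF receptors passed the unadjusted threshold. Kdr (VEGFR2), the main signalling receptor for VEGFA, was at 4.78, 9.67, 7.08, 7.43 and 6.78 FPKM in the DUSP6 KO mice and 6.88, 7.09, 6.01, 5.83 and 6.28 FPKM in the WT mice, so that DUSP6 KO held both the lowest and the highest spleen (0.12 ± 0.16, exact permutation p = 0.540). Flt1 (VEGFR1), which binds VEGFA and signals weakly, was at 1.72, 3.09, 1.76, 2.19 and 2.16 FPKM in the DUSP6 KO mice and 2.43, 2.30, 2.31, 2.45 and 2.51 FPKM in the WT mice (-0.16, exact permutation p = 0.294). Of its 5 DUSP6 KO values, 4 lay below all 5 WT values and that of mouse 21 lay above them. Leaving out mouse 21 gave Flt1 a log2 fold change of -0.29 ± 0.11 (limma unadjusted p = 0.0323, adjusted p = 0.666) and groups without overlap. It was the only receptor lower at that threshold in that comparison, where 943 of the 21296 genes were lower. Groups of fewer mice separate more easily, and the share of all genes without overlap is not given for that comparison. Flt4 (VEGFR3), the VEGFC receptor of lymphatic and sinusoidal endothelium, was at 2.98 ± 0.415 and 2.82 ± 0.248 FPKM.

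The TAM receptors, which recognise GAS6 and protein S on dying cells, included 2 of the 3 most abundant receptors. Axl was at 75.9, 99.0, 94.0, 76.5 and 79.4 FPKM in the DUSP6 KO mice and 72.99, 75.8, 74.8, 75.5 and 77.2 FPKM in the WT mice. The WT values lay close together, and those of DUSP6 KO mice 21, 73 and 03 were above all of them, with a log2 fold change of 0.17 ± 0.09 (limma unadjusted p = 0.0845; exact permutation p = 0.0397). Without mouse 21 the log2 fold change of Axl was 0.11 (limma unadjusted p = 0.178). Mertk, which macrophages use to engulf apoptotic cells, was at 15.6 ± 3.29 and 14.1 ± 1.09 FPKM (0.13, exact permutation p = 0.413). Tyro3 was at a low level, 0.505 ± 0.193 and 0.403 ± 0.118 FPKM (exact permutation p = 0.317).

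The EPH receptors, which respond to ephrins on neighbouring cells, were the largest family, with 7 of 8 tested and all 7 log2 fold changes above 0. Epha4 (chr1:77367185-77515088) had the largest fold change of the 39 receptors at one of the lowest levels. It was at 0.186, 0.0958, 0.178, 0.155 and 0.240 FPKM in the DUSP6 KO mice and 0.0363, 0.0585, 0.0504, 0.0373 and 0.104 FPKM in the WT mice, which corresponds to 15 to 32 and 5 to 15 reads. Only DUSP6 KO mouse 21 and WT mouse 83 overlapped (0.78 ± 0.29, unadjusted p = 0.0228, adjusted p = 0.789; exact permutation p = 0.0159). At such low values the fold change depends on the constant added before the logarithm, and was 0.15 with 1 FPKM and 1.46 with 0.01 FPKM added.

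Ephb4, the ephrin-B2 receptor of venous endothelium and the most abundant of the EPH receptors, was at 6.06, 8.37, 5.74, 5.72 and 6.37 FPKM in the DUSP6 KO mice and 5.10, 6.06, 4.92, 5.63 and 5.22 FPKM in the WT mice. All DUSP6 KO values were above the WT median and 3 were above every WT value, mouse 26 only just (0.24 ± 0.12, limma unadjusted p = 0.0610; exact permutation p = 0.0317). Without mouse 21 its log2 fold change was 0.15 (limma unadjusted p = 0.115). Epha2, Epha3, Ephb2, Ephb3 and the kinase-dead Ephb6 had log2 fold changes of 0.22, 0.26, 0.16, 0.10 and 0.12, with unadjusted p-values of 0.181 to 0.813. Epha7, which was not tested, was at 0.0217 to 0.104 FPKM in the DUSP6 KO mice and 0.0178 to 0.119 FPKM in the WT mice, with 3 to 22 reads per library.

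The WNT receptors and co-receptors held 2 more of the 6. Ryk (chr9:102834917-102908305), a kinase-dead WNT receptor, was at 7.46, 6.13, 9.74, 8.55 and 5.70 FPKM in the DUSP6 KO mice and 5.43, 5.35, 5.38, 7.02 and 4.68 FPKM in the WT mice. Mice 73, 01 and 26 of DUSP6 KO were above all WT mice, and mice 21 and 03 were below WT mouse 77 (0.41 ± 0.16, unadjusted p = 0.0273, adjusted p = 0.789; exact permutation p = 0.0476). Of the 6 receptors its difference was lost most often, with an unadjusted p of 0.05 or more when DUSP6 KO mouse 73 or 01 or WT mouse 65, 67, 73 or 83 was left out.

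Ptk7 (chr17:46564471-46629504), a kinase-dead co-receptor of planar cell polarity, was at 3.42, 7.19, 4.53, 4.75 and 6.03 FPKM in the DUSP6 KO mice and 3.37, 1.92, 3.91, 4.08 and 3.48 FPKM in the WT mice. The groups overlapped only in DUSP6 KO mouse 26, and WT mouse 67 was far below the other WT mice (0.62 ± 0.24, unadjusted p = 0.0258, adjusted p = 0.789; exact permutation p = 0.0397). With DUSP6 KO mouse 21 and WT mouse 67 both left out, its log2 fold change was 0.31 ± 0.17 (unadjusted p = 0.107). Ror1 and Ror2, the WNT5A receptors, had log2 fold changes of 0.14 and -0.01 (exact permutation p = 0.619 and 0.960). Musk, the agrin co-receptor of the neuromuscular junction, had at most 1 read in a DUSP6 KO and 3 reads in a WT library.

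**Figure D2:**
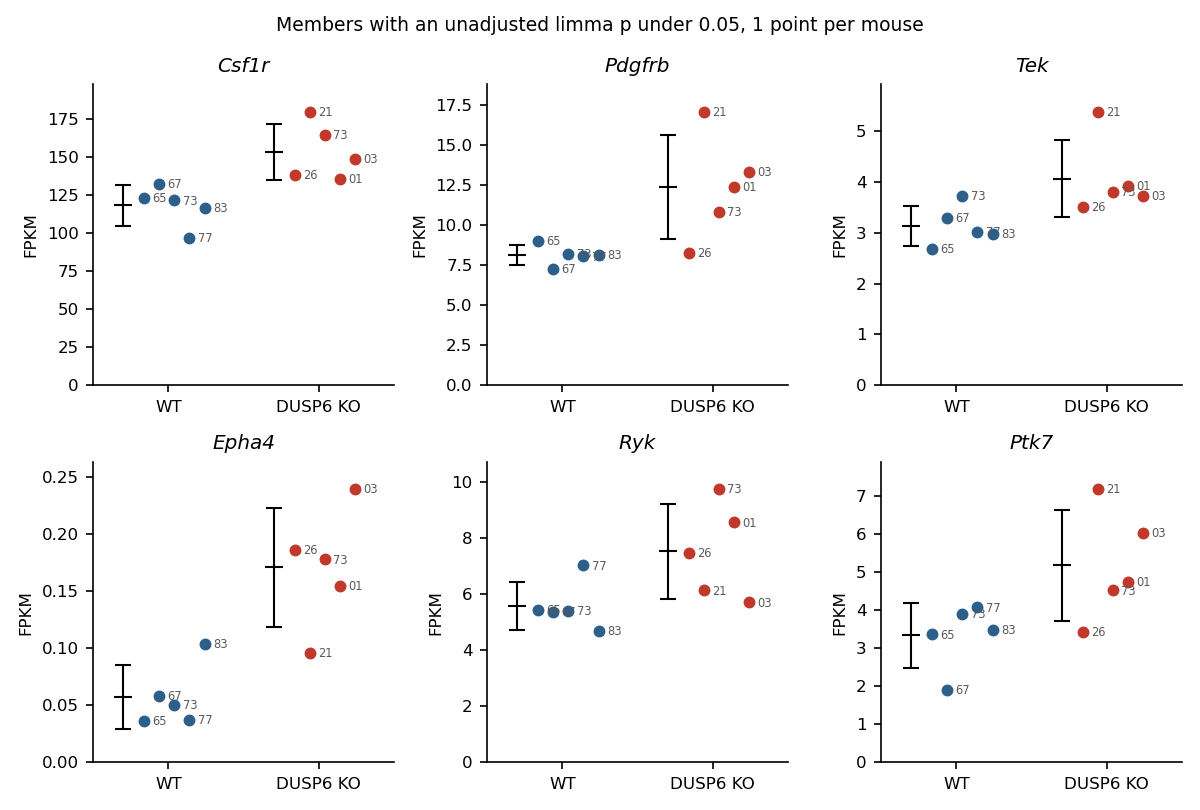
FPKM (y axis, from 0) of the 6 receptors with an unadjusted limma p under 0.05 in each mouse, with the mouse number beside each point and the mean ± SD (n = 5) to the left of each group. The groups are apart in Csf1r, and in each of the other 5 at least 1 DUSP6 KO mouse lies within the WT range.

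The sequence before the start of 4 of the 6 receptors is shown with that of Tie1, since Tek and Tie1 serve the same endothelium and only Tek passed the unadjusted threshold. Each is the 250 bases before the RefSeq start on the gene's strand (GRCm38.p6), in lower case with matches of 4 motifs in capitals. The motifs were searched on both strands with overlapping matches counted. They were the ETS motif CCGGAA, the AP-1 site TGANTCA, the GC box GGGCGG and the TATA box TATAAA. The ETS and AP-1 motifs are bound by factors that ERK activates. CCGGAA holds the shorter ETS core GGAA, and GGAA with other letters before it was not searched for.
Tek, chr4:94739039-94739288, plus strand: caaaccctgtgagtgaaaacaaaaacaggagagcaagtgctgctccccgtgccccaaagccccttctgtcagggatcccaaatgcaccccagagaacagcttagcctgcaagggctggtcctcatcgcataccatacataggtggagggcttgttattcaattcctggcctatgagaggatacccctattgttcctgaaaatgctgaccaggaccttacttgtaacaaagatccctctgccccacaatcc
Tie1, chr4:118489850-118490099, minus strand: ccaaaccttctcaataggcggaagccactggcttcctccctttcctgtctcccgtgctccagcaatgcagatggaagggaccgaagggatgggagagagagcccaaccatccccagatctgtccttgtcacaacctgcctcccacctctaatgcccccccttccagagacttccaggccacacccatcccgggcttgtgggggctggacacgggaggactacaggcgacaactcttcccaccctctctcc
Epha4, chr1:77515089-77515338, minus strand: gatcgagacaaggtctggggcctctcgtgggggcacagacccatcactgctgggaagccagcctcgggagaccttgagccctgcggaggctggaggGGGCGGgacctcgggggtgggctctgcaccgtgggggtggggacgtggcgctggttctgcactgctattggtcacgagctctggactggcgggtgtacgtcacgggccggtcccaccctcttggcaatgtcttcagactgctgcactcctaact
Ryk, chr9:102834670-102834919, plus strand: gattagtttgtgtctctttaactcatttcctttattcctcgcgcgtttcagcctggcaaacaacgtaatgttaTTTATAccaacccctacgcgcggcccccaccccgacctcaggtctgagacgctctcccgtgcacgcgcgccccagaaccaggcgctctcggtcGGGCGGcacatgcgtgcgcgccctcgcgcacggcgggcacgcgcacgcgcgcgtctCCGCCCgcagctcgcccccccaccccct
Ptk7, chr17:46629505-46629754, minus strand: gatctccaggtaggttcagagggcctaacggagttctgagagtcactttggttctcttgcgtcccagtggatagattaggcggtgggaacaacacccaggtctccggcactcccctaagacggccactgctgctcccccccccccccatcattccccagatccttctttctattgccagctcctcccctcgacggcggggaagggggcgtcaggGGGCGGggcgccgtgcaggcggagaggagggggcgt

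In these windows Tek and Tie1 held none of the 4 motifs as spelled here. Epha4 had a GC box 154 bases and Ptk7 one 36 bases before the start. Ryk had GC boxes at 84 and 28 bases and, at 177 bases, the TATA box letters on the opposite strand. These are matches of letters only. A window was found for 35 of the 41 receptors, and for Csf1r, Pdgfrb, Ret, Erbb3, Fgfr1 and Insr none was used. The GC box was present in 24 of the 35 (68.6%), against 32.7% of the 32851 windows of all genes. The ETS motif CCGGAA was present in 5 of the receptors' windows (14.3%, against 12.03%). The AP-1 site was present in 2, Met and Ror2 (5.71%, against 6.75%), and the TATA box in 3 (8.57%, against 12.4%). The receptors' windows had a median GC content of 64% and 15 CpG, against 52.4% and 6 for all windows. None of the 4 shown windows of receptors that were higher held CCGGAA or an AP-1 site in these letters. At shares of 12.03% and 6.75% over all windows, none in 4 windows does not set these receptors apart from other genes.

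No member of the remaining families passed the unadjusted limma threshold. Of the FGF receptors, which bind FGFs together with heparan sulfate or Klotho proteins, Fgfr1 was the most abundant, at 2.39, 3.70, 2.23, 2.83 and 2.87 FPKM in the DUSP6 KO mice and 2.58, 2.69, 2.87, 2.75 and 2.77 FPKM in the WT mice (0.02 ± 0.14, exact permutation p = 0.913). Mouse 21 was the highest for Fgfr1, and mice 73 and 26 of DUSP6 KO were the lowest. Fgfr3 and Fgfr4 had higher means in DUSP6 KO, at 3.09 ± 1.08 against 2.22 ± 0.477 FPKM and 2.29 ± 0.432 against 1.67 ± 0.474 FPKM (exact permutation p = 0.103 and 0.0159). The log2 fold change of Fgfr4 was 0.47 with all mice, 0.37 without DUSP6 KO mouse 21, 0.27 without WT mouse 67 and 0.17 without both (limma unadjusted p = 0.216, adjusted p = 0.919). That of Fgfr3 was 0.42 with all mice, 0.25 without DUSP6 KO mouse 21 and 0.18 without both. Fgfr2 was at 0.522 ± 0.182 and 0.408 ± 0.0548 FPKM, and its listed span of 2.96 Mb covers 69 other genes, so its reads are uncertain.

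The 3 ERBB receptors, a family activated by EGF-like ligands and neuregulins, had log2 fold changes close to 0. Erbb2, the ligandless partner of the family, was at 1.46, 1.94, 1.56, 1.22 and 2.04 FPKM in the DUSP6 KO mice and 1.95, 1.78, 1.55, 1.30 and 1.30 FPKM in the WT mice (0.05 ± 0.18, exact permutation p = 0.754), and its groups overlapped over nearly the whole range. Egfr and Erbb3 had log2 fold changes of 0.03 and 0.00. Insr, the insulin receptor, was at 3.29, 4.11, 2.87, 3.37 and 3.46 FPKM in the DUSP6 KO mice and 3.05, 3.82, 3.86, 3.46 and 3.36 FPKM in the WT mice (-0.04 ± 0.12, exact permutation p = 0.730). Its highest and its lowest value were both of DUSP6 KO, in mice 21 and 73. Igf1r, the IGF1 receptor, was at 1.97 ± 0.290 and 1.97 ± 0.473 FPKM.

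Met, the receptor for hepatocyte growth factor, was at 2.03, 3.25, 2.06, 2.36 and 2.87 FPKM in the DUSP6 KO mice and 1.52, 2.61, 2.36, 2.57 and 2.82 FPKM in the WT mice, where mouse 65 was the lowest of all (0.08 ± 0.19, exact permutation p = 0.706). Mst1r, the receptor for macrophage-stimulating protein, had 6 to 25 reads per library and a log2 fold change of -0.29 with an interval of -0.997 to 0.42. Neither receptor of the MET family was separated between the groups.

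Ddr1, a collagen receptor, was at 7.43, 12.2, 8.23, 8.37 and 11.3 FPKM in the DUSP6 KO mice and 9.70, 8.18, 8.64, 7.29 and 9.51 FPKM in the WT mice (0.11 ± 0.15, exact permutation p = 0.476). Mice 21 and 03 were above all WT mice for Ddr1 and the other 3 lay within the WT range. Its relative Ddr2 was at 2.08 ± 0.344 and 1.87 ± 0.182 FPKM. Ntrk2, the receptor for BDNF, was at 0.158, 0.461, 0.180, 0.280 and 0.309 FPKM in the DUSP6 KO mice and 0.200, 0.155, 0.159, 0.343 and 0.226 FPKM in the WT mice (0.23 ± 0.30, exact permutation p = 0.373), again with mouse 21 the highest and the other DUSP6 KO values close to or within the WT range. Ret, the receptor for GDNF family ligands, was at 0.203 ± 0.0669 and 0.220 ± 0.0374 FPKM (exact permutation p = 0.579).

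In both groups the same 3 receptors headed the order of levels, Csf1r, then Axl, then Mertk, and the values of these did not overlap from one to the next. Csf1r and Axl together made up 64.7% of the summed FPKM of the 41 receptors in DUSP6 KO and 62.7% in WT spleens. Over the 10 mice, 1 receptor had a mean above 100 FPKM, 3 had 10 to 100, 23 had 1 to 10, 12 had 0.1 to 1 and 2 had less. Pdgfrb ranked 4 in DUSP6 KO and 6 in WT, and Ryk 7 and 10. Below the top, most neighbours in the order were not separated: 3 of the 40 neighbouring pairs in DUSP6 KO and 7 of 40 in WT had values without overlap. The summed FPKM of the receptors was 322 to 439 in DUSP6 KO mice and 285 to 323 in WT mice, and a single DUSP6 KO mouse, 26, lay within the WT range.

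**Figure D3:**
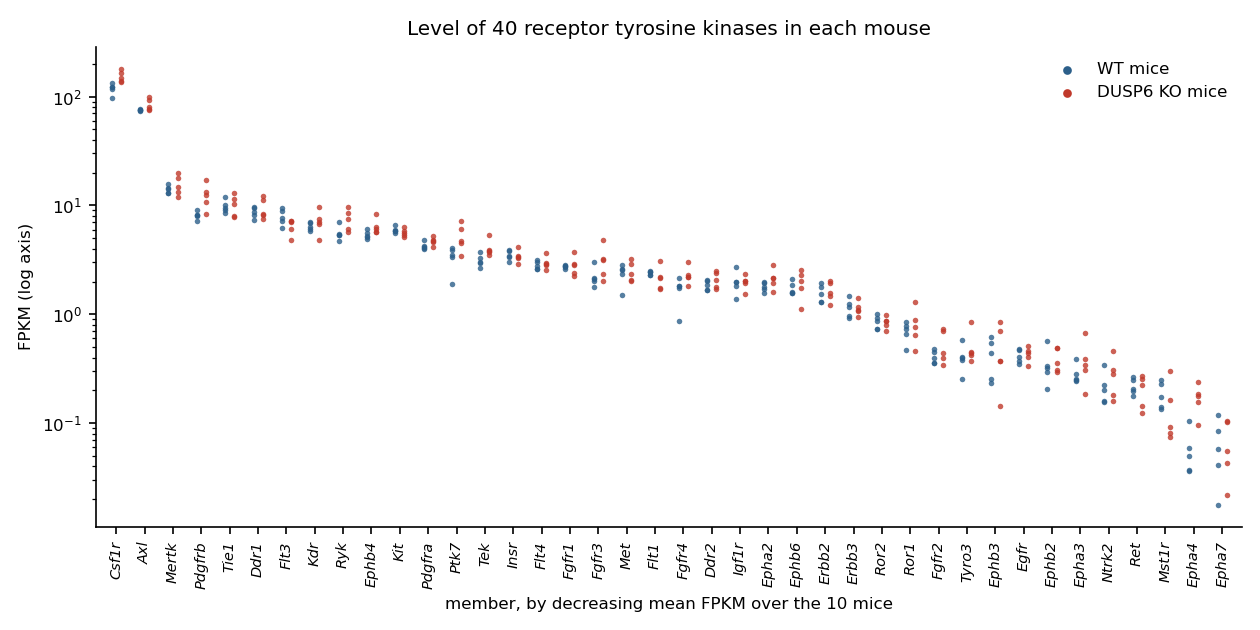
FPKM on a log axis (y axis) of 40 receptors ordered by their mean over the 10 mice (x axis), with 1 point per WT or DUSP6 KO mouse. Musk, with at most 3 reads in a library, is left out. Csf1r and Axl lie above all others, and Epha4 and Epha7 are at the low end.

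One DUSP6 KO spleen stood apart in its receptor levels. DUSP6 KO mouse 21 was the highest of the 10 mice for 23 of the 39 receptors (59.0%) and the lowest for 0, whereas it was the highest for 15.3% of all genes. Its receptors lay a median of 0.34 (log2) above their means over the 10 mice, and all its genes 0.06 above theirs. DUSP6 KO mouse 03 followed, with a median of 0.15, and mice 26 and 73 were below the mean, at -0.12 and -0.11. The 5 WT mice lay between -0.11 and -0.03. The 23 receptors highest in mouse 21 came from 11 of the 12 families and included all 3 VEGF receptors, both TIE receptors and 3 of the 4 FGF receptors. Mertk and Ryk were instead highest in mouse 73.

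**Figure D4:**
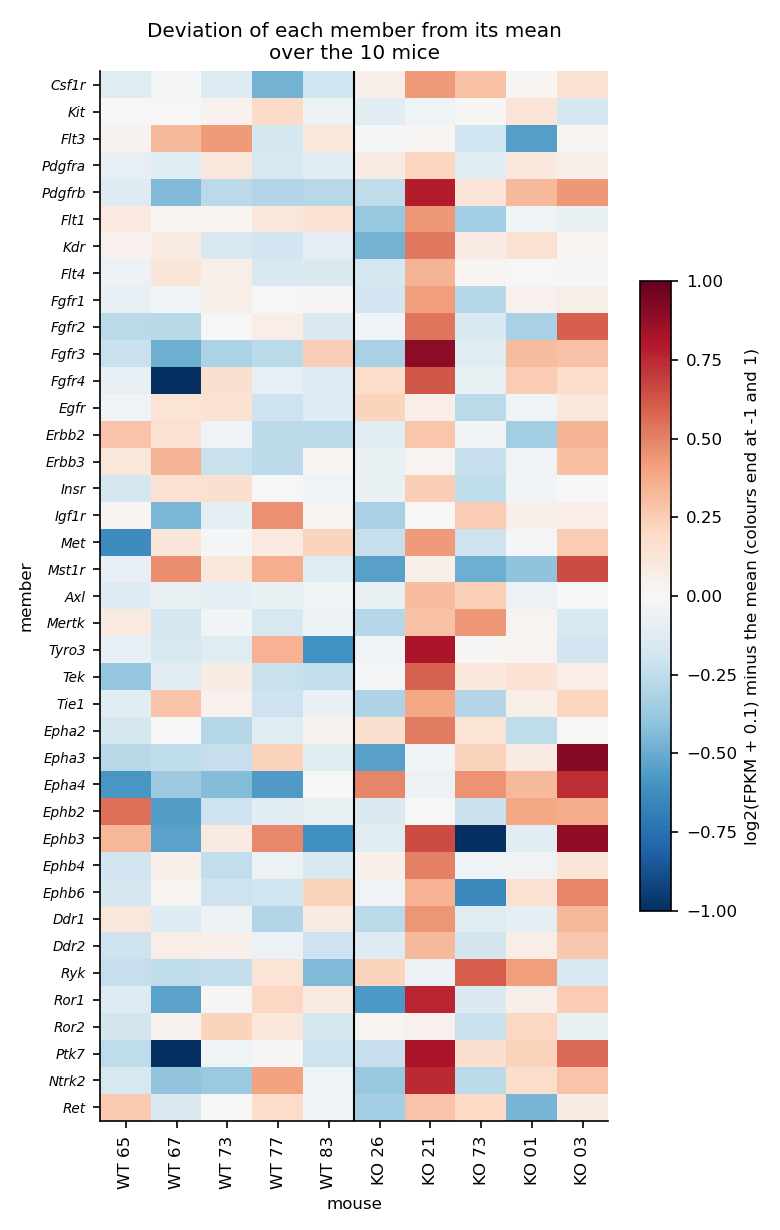
Deviation of each of the 39 receptors (y axis) from its own mean over the 10 mice, on the log2(FPKM + 0.1) scale, in each mouse (x axis), with red above and blue below the mean. The column of DUSP6 KO mouse 21 is red for most receptors (34 of 39 above the mean), and that of DUSP6 KO mouse 26 is mostly blue (9 of 39 above).

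Leaving out DUSP6 KO mouse 21 lowered the number of receptors with a positive log2 fold change from 32 to 24 of 39, where 47.0% of all genes were positive. The median fell from 0.13 to 0.05, against -0.019 over all genes. Csf1r, Pdgfrb, Tek, Epha4 and Ryk stayed higher at an unadjusted limma p under 0.05, as 2.70% of all genes were, and Ptk7 did not. With WT mouse 67 left out as well, 27 were positive (49.3% of all genes were) and the median was 0.06, against -0.0037 over all genes. The spread was also wider among DUSP6 KO mice: the SD of log2(FPKM + 0.1) was larger in DUSP6 KO than in WT for 32 of 39 receptors (82.1%), against 58.6% of all genes. Without mouse 21 it was larger for 25 of 39 (64.1%), against 52.0% of all genes.

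Markers of the cell types that carry these receptors were followed beside them. The summed FPKM of 11 red pulp macrophage markers was 1200.1 to 1826 in DUSP6 KO and 1285 to 1566 in WT mice. Higher at an unadjusted p under 0.05 were 3 of these 11 (27.3%), Adgre1, Cd163 and Treml4, against 2.62% of all genes. Adgre1, at 40.2 to 59.5 against 33.1 to 38.3 FPKM, and Treml4, at 33.6 to 55.6 against 27.1 to 33.3 FPKM, did not overlap between the groups, as Csf1r did not. Such separation in this direction was seen for 0.549% of all genes. Mrc1, Slc40a1, Spic and Vcam1 did not pass the unadjusted threshold, with log2 fold changes of 0.10, 0.06, -0.004 and -0.11. Hmox1, C1qa, C1qb and C1qc, none of which passed it either, made up 77.7% to 81.9% of the macrophage sum. In DUSP6 KO mice 01 and 03 that sum was 1200.1 and 1331, and Csf1r, Adgre1 and Treml4 were each above all their WT values. The 13 stromal markers summed to 240 to 412 in DUSP6 KO and 272 to 345 in WT mice, and 1 of them (7.69%), Tcf21, was higher at that threshold. The stromal sum was highest in the 2 DUSP6 KO mice, 21 and 03, that had the most Pdgfrb. DUSP6 KO mouse 73 had the lowest stromal sum and more Pdgfrb than any WT mouse. Cxcl13 and Acta2 were the largest parts of this sum in every mouse, at 104 to 188 and 48.9 to 117 FPKM. Endothelial markers summed to 243 to 338 in DUSP6 KO and 221 to 315 in WT mice, with 2 of 12 (16.7%, Eng and Stab2) higher. Of the 12, 9 had a positive log2 fold change, and those of Pecam1, Vwf and Emcn were -0.04, -0.18 and -0.42. DUSP6 KO mouse 21, the highest for Tek, was also the highest for this sum. No marker of these 3 lists was at 0 in any library. The part of these cell types in the differences of Csf1r, Pdgfrb and Tek was not tested.

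Ryk and the erythroid markers were highest in the same mice. The summed FPKM of these markers was 1006, 268, 2126, 1278 and 576 in DUSP6 KO and 878, 296, 866, 1563 and 668 in WT mice, and mice 73, 01 and 26, the 3 highest of DUSP6 KO in this sum, were also the 3 highest for Ryk. In WT, mouse 77 was the highest in both. Haemoglobin genes took from 1.74% of the reads, in DUSP6 KO mouse 21, to 7.56%, in DUSP6 KO mouse 73. None of the 8 erythroid markers differed at an unadjusted p under 0.05, and DUSP6 KO mouse 21, with the lowest erythroid sum of all 10 mice, had more Ryk than 4 of the 5 WT mice. The part of erythroid cells in the difference of Ryk was not tested.

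Stem, progenitor and mast cells carry Kit, and the list of 9 markers drawn up for them also holds Mcpt8, a basophil protease. These markers summed to 10.5 to 14.8 in DUSP6 KO and 15.97 to 29.2 in WT mice. The gap rested on Mcpt8: without it the sums were 9.19 to 13.3 and 11.8 to 16.5 and overlapped. Of these markers, Ms4a2 and Mcpt8 were lower at an unadjusted p under 0.05 (22.2% of the 9, against 3.03% of all genes). Neither overlapped between the groups, a separation seen in that direction for 0.563% of all genes. Ms4a2, which basophils also express, was at 0.218 to 0.366 FPKM in DUSP6 KO and 0.521 to 0.886 FPKM in WT mice. The other markers of this list did not pass the unadjusted threshold, with log2 fold changes from -0.70 (Fcer1a) to 0.30 (Mecom). Kit did not pass the unadjusted threshold. Dendritic cell markers, whose cells carry Flt3, summed to 117 to 165 and 113 to 166, with 1 of 9, Siglech, higher (11.1%, against 2.62% of all genes). Of 8 B and T cell markers 0 differed at an unadjusted p under 0.05 (5.66% of all genes did). Of 6 mesothelial markers 1, Krt19, was lower (16.7%, against 3.03% of all genes).

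**Figure D5:**
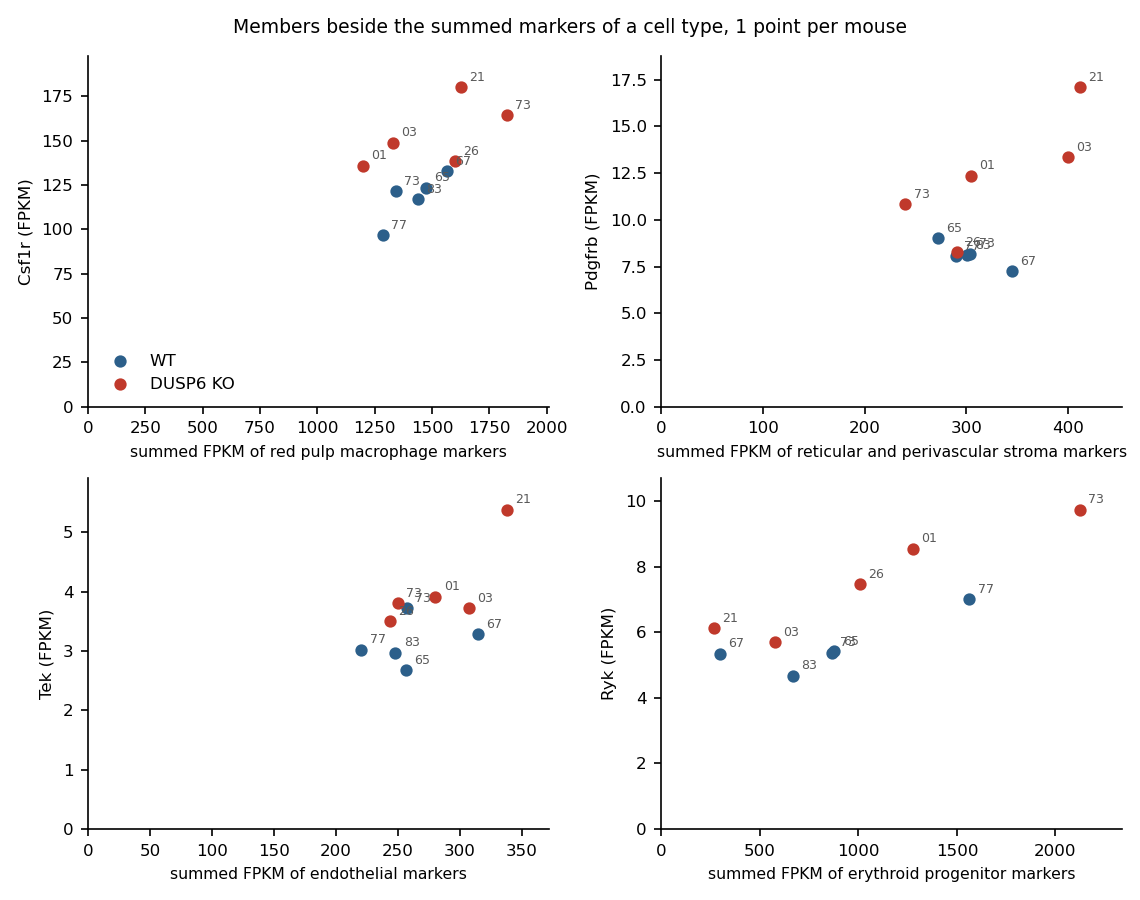
FPKM of Csf1r, Pdgfrb, Tek and Ryk (y axes, from 0) against the summed FPKM of the markers of red pulp macrophages, stroma, endothelium and erythroid progenitors (x axes, from 0), with 1 point per mouse and the mouse number beside it. For Csf1r the 5 DUSP6 KO mice lie above the 5 WT mice, and Ryk is highest in DUSP6 KO mouse 73, which has the highest erythroid sum.

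A further 3 lists were drawn up for the same pathway, and in none did a gene reach an adjusted p of 0.05 by limma. Of 17 other receptor tyrosine kinases, 10 were tested and 0 differed at an unadjusted p under 0.05 (5.66% of all genes did in either direction) and their median log2 fold change was -0.05. The most abundant of these was Lmtk2, at 8.32 ± 0.752 and 8.50 ± 0.699 FPKM, while Epha5, Epha6, Ros1 and Alk were listed at 0 in all 10 mice. Of 24 adaptors and attenuators such as Grb2, Sos1 and Cbl, all 24 were tested and 0 differed, with a median of -0.05, and the most abundant was the phosphatase Ptpn6 (151 ± 27.3 against 168 ± 31.3 FPKM).

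Of 55 ligands, 48 were tested and their log2 fold changes had a median of 0.08. At an unadjusted p under 0.05, 2 were higher and 2 lower, together 8.33%, against 5.66% of all genes. Hbegf, a ligand of EGFR, was at 2.46, 4.14, 2.24, 2.995 and 3.05 FPKM in the DUSP6 KO mice and 1.68, 1.55, 2.64, 1.80 and 1.86 FPKM in the WT mice (0.61 ± 0.19, adjusted p = 0.618), with only DUSP6 KO mice 26 and 73 within the WT range. Efnb1, an ephrin that EPHB receptors bind, was also higher (5.79 to 8.14 against 4.35 to 5.91 FPKM, adjusted p = 0.789). Pdgfc, a ligand of PDGFRA, was lower at 0.774 ± 0.0844 against 1.18 ± 0.237 FPKM, and so was Fgf13, an FGF homologue that stays inside the cell, at 0.815 to 1.52 against 1.35 to 2.12 FPKM over the mice (adjusted p = 0.708 and 0.836). Gas6, the TAM ligand, was the most abundant ligand, at 29.6 ± 6.70 and 24.9 ± 1.35 FPKM (exact permutation p = 0.246). Some ligands of receptors that were higher, named after their values were seen, did not pass the unadjusted threshold: Csf1 and Il34 for Csf1r (exact permutation p = 0.365 and 0.532), Pdgfb for Pdgfrb (exact permutation p = 0.643) and Angpt1 for Tek (exact permutation p = 0.817).

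The genes of the family are spread over 14 chromosomes, with Pdgfrb beside Csf1r on chromosome 18. On chromosome 5, Pdgfra, Kit and Kdr follow each other at distances of 377 and 276 kb, with log2 fold changes of 0.14, -0.07 and 0.12. On the same chromosome, Flt3 and Flt1 lie 161 kb apart, with -0.29 and -0.16. Only Erbb3, with a log2 fold change of 0.00, lies on the chromosome of the deleted gene, 29.3 Mb from Dusp6. Whether reads were counted by strand is not stated in the sources used here, and Csf1r overlaps Hmgxb3 on the opposite strand by 871 bases. At 7860 to 17087 reads per library for Csf1r and at most 829 for Hmgxb3, the reads of the latter were few beside those of Csf1r. Ptk7 likewise overlaps Gm26904 on the opposite strand, which had at most 13 reads in a library.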

How the data were processed

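Poly-A RNA of whole spleen from 5 DUSP6 KO and 5 WT mice was sequenced as paired-end Illumina libraries, 1 per mouse. The authors aligned reads with Hisat2, counted them per gene (featureCounts 1.5.0-p3 in the submitters' processing notes), tested counts with DESeq2 and deposited FPKM per gene. Those notes name hg38, while the gene IDs are of mouse and the coordinates of 40 of the 41 receptors are those of GENCODE M21 on GRCm38, Csf1r being the exception. The strand setting of the counting is not given in the sources used here.

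FPKM × gene length was a whole multiple of 1 step per library for all genes (tolerance 0.001), which gave the reads per gene and the library totals. Groups were compared with limma 3.58.1 (eBayes with trend, R 4.3.3) on log2(FPKM + 0.1) over the 21296 genes whose FPKM averaged 0.1 or more, with Benjamini-Hochberg adjustment over all of them and a threshold of 0.05. Intervals are 95% limma intervals. A fold change on this scale understates that of genes at low FPKM. Single receptors were also compared by a two-sided exact permutation test. The procedure was also run on simulated counts with changes larger than those of the receptors in the main comparison. That run does not show how well differences of the receptors' size are found. Replicate libraries differed by more than counting noise (chi-square per gene 13.4 to 151 over 20 pairs). The numbers of mice are taken from the labels, and nothing more is stated on litters or days.

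The receptors and lists were chosen with earlier results of these data known. Values are given for each mouse for receptors with an unadjusted p under 0.05 or groups without overlap and for the most abundant receptor of each family, and from the other lists genes with an unadjusted p under 0.05 and the most abundant one are named. Flt3 and Flt1, some neighbours and the ligands of Csf1r, Pdgfrb and Tek were added after their values were seen. Alternatives were other pseudocounts, filters, normalizations and weights, limma-voom on recovered reads, leaving out each library, and, chosen after seeing the data, FPKM rescaled to the recovered read totals and the omission of DUSP6 KO mouse 21 with WT mouse 67. Promoter windows are from RefSeq (GRCm38.p6).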

Additional observations from a re-analysis of the deposited data

Results flagged for a closer look

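Over the 39 receptors tested, the highest or lowest mouse of a group was set against the others by its gap to the nearest value as a share of the group's range, with 0.71 as the critical value for 5 mice. Of 78 groups, 6 passed (7.69%), where chance gives about 5%.

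In DUSP6 KO, 3 of the 6 were receptors for which mouse 21 stood above the other 4 mice. Tek was at 5.38 FPKM there and 3.50 to 3.92 FPKM in the others (0.740 of the range). Ephb4 was at 8.37 FPKM against 5.72 to 6.37 FPKM (0.719). Tyro3, one of the least abundant receptors, was at 0.846 FPKM against 0.370 to 0.447 FPKM (0.783).

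In WT, the other 3 were receptors for which 1 mouse stood below the rest. Mouse 67, the library with pancreatic transcripts, had 0.872 FPKM of Fgfr4 where the others had 1.73 to 2.14 FPKM (0.758), and 1.92 FPKM of Ptk7 where the others had 3.37 to 4.08 FPKM (0.744). Mouse 65 had 1.52 FPKM of Met, and the others 2.36 to 2.82 FPKM (0.713).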

How the results depend on the processing

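No receptor passed an adjusted p of 0.05 in any of the 22 alternatives, the lowest adjusted p being 0.203 for Pdgfrb. Receptors higher at an unadjusted p under 0.05 numbered 6, and 4 to 9 over the alternatives (4 to 8 with 1 library left out). Over the alternatives, 2.31% to 3.17% of all genes were higher at that threshold. Csf1r and Pdgfrb kept that side in all 22, Epha4 in the 21 that tested it, Tek in 20, Ptk7 in 18 and Ryk in 16. Tek lost it without WT mouse 65 or 83, and Ptk7 without DUSP6 KO mouse 21 or 03 or WT mouse 67. The median log2 fold change was 0.05 to 0.19. Among all genes, 15 passed the adjusted threshold, and 11 to 32 did over the alternatives, with 32 without DUSP6 KO mouse 21, 26 without it and WT mouse 67, and 22 with array weights.

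Receptors lower at an unadjusted p under 0.05 numbered 0, but 1 with array weights (Flt3), 1 without DUSP6 KO mouse 21 and WT mouse 67 (Flt1), and 0 to 1 with 1 library left out. Of all 21296 genes, 924 were lower at that threshold with array weights, 780 without those 2 mice and 943 without DUSP6 KO mouse 21 alone. Receptors below without overlap numbered 0, but 1 without those 2 mice and 0 to 1 with 1 library left out. Receptors above without overlap numbered 1, but 2 after median centring, 3 without those 2 mice and 1 to 3 with 1 library left out. Groups of fewer mice separate more easily, so these counts are not on a par with that of all mice. The shares of all genes without overlap are not given for the alternatives. By the exact permutation test 9 receptors had p under 0.05, but 5 with FPKM rescaled to the recovered read totals. They numbered 4 without those 2 mice and 5 to 8 with 1 library left out. For the limma-voom alternative the exact test used the same rescaled FPKM, so it adds no separate count. Ligands at an unadjusted p under 0.05 numbered 4, but 2 with FPKM rescaled to the recovered read totals and 2 to 7 with 1 library left out (2 without WT mouse 73, 7 without DUSP6 KO mouse 26). Adaptors and attenuators numbered 0, but 1 with array weights and 0 to 1 with 1 library left out. The cause of these shifts was not tested. An exact test has fewer splits with fewer mice, so its counts with mice left out are not on a par with the count of all mice.

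Fgfr1, Erbb2, Insr, Met, Tie1 and Ddr1, with log2 fold changes near 0, changed sign in 1 to 4 alternatives. No paired analysis was possible because the replicate numbers are animal numbers and the groups share only 1 of them, 73. Depth limits Epha4, Mst1r, Epha7 and Musk, which had 32 or fewer reads in every library.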
